A study of Homo sapiens with 2 samples.

Results

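The RNA of 293T cells treated with 10 µM Y27632 for 3 h was compared with that of untreated 293T cells, given a time of 0 h, on 1 dual-colour oligonucleotide array. The members described are all genes with a value on that array, each the mean of its probes that carry 1 gene symbol: 10810 genes, of 11057 in the whole series, where a second array holds the 6 h treatment. The cells are an established human embryonic kidney line that carries viral oncogenes. The untreated RNA carried Cy5 and the treated RNA carried Cy3, and no array had the dyes exchanged. The array's title gives the word control and a time but not the inhibitor, which was read from the other labels of the Cy3 channel. The labels do not say whether the 3 h and 6 h arrays used the same untreated RNA. The inhibitor, the hours in culture, the handling and the dye cannot be told apart in this design.

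Y27632 competes with ATP at the kinases ROCK1 and ROCK2. These raise actomyosin tension by phosphorylating the myosin phosphatase subunit and the LIM kinases, which in turn restrain cofilin. Less tension changes the balance of free and filamentous actin, which is read in the nucleus by the MRTF cofactors of SRF. ROCK inhibition is widely used to keep dissociated epithelial and stem cells alive.

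Each deposited value is a log ratio of the channels, read here in base 2, so that 1 unit is a 2-fold difference. Which channel is the numerator is unstated in the labels and the table. If it is the treated one, a positive value means more RNA after Y27632, and if it is the untreated one, less. Signs below are those deposited, and no gene is said to have risen or fallen. With 1 array there is no replicate, no test and no p-value, and precision is limited by that number. Such a ratio holds no level either, so the identity of the cells could not be checked against marker genes. The median gene lay at 0.02, the quartiles at −0.19 and 0.23 and the extremes at −1.68 and 2.18, with an SD of 0.36 across genes. Slightly more genes were positive than negative, 51.3% against 47.5%, and these shares are the reference for the gene lists below.

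Genes at least 2-fold from 0 made up 1.61% of those measured, with 71 positive (0.657%) and 103 negative (0.953%). At the lower size of 1.5-fold, 527 genes were positive (4.88%) and 485 negative (4.49%), or 9.36% for either sign. Past 2-fold the negative genes were thus more numerous, and past 1.5-fold the positive ones. The 1.5-fold shares are the reference for such counts in the lists below, and in a short list 0 may be near them. The excess at 2-fold was seen for genes only: over all measured probes, those without a symbol included, 221 were positive and 221 negative.

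**Figure D1:**
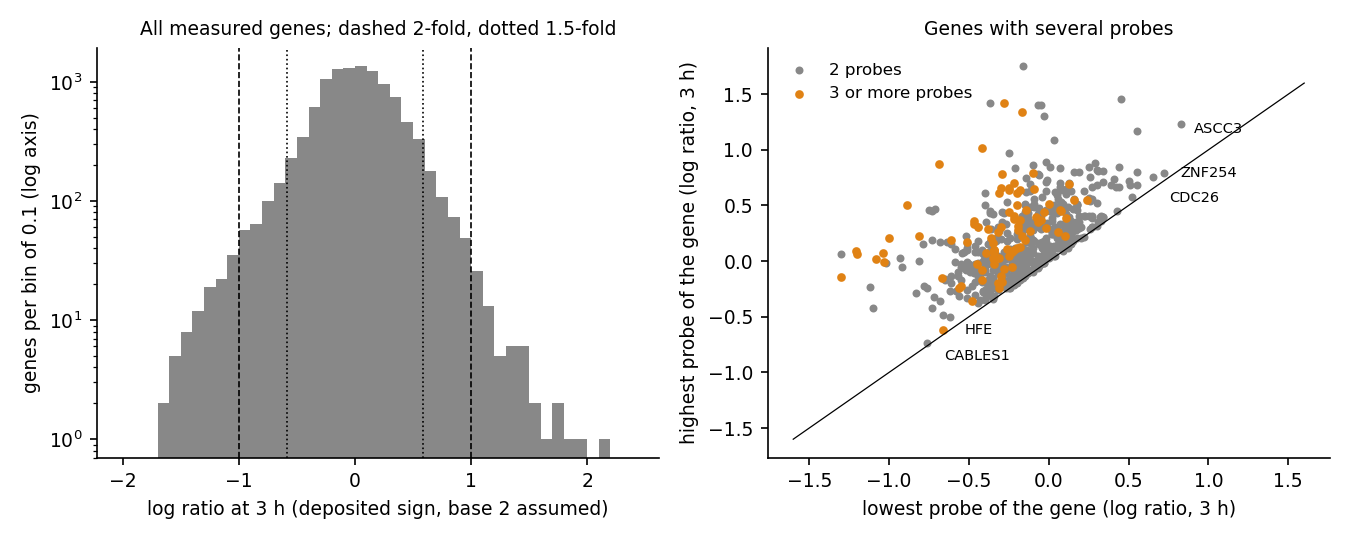
Left, number of genes in bins of 0.1 by log ratio at 3 h, on a log axis, with the 2-fold sizes dashed and the 1.5-fold sizes dotted. The quartiles of the genes are −0.19 and 0.23. Right, for each of 599 genes with several probes, the highest probe against the lowest, with the line of equality; the 5 labelled genes have every probe past 1.5-fold on the same side.

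The only error that the array offers is the disagreement of probes for the same gene. Of the genes, 10211 had 1 measured probe and 599 had several. Within those 599 genes the SD of the probes was 0.32, nearly as large as the SD of 0.36 across all genes. Among 512 genes with exactly 2 probes the median gap was 0.26, the gap at the 90th percentile was 0.65, and in 186 genes the probes had opposite signs. Single probes of genes with several probes passed 2-fold in 1.76% of cases, against 1.69% for genes with 1 probe. After averaging, 1 gene with several probes remained past 2-fold, 0.167% of such genes, and 173 of the 174 genes past 2-fold rested on 1 probe. A value from 1 probe therefore carries a probe difference close to the size of the spread itself. This SD covers differences between probes on 1 array, not between cultures, labelling reactions or dyes.

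Of the genes with several probes, 115 had at least 1 probe past 1.5-fold, and in 5 every probe was past it on the same side. ASCC3, a helicase of the complex that unwinds alkylated DNA and splits stalled ribosomes, had probe values of 1.23 and 0.83 and a mean of 1.03. ZNF254, a zinc finger protein, had 0.79 and 0.72, and CDC26, a subunit of the anaphase-promoting complex, had 0.76 and 0.65. On the negative side, CABLES1, which links cyclin-dependent kinases to ABL kinases, had −0.76 and −0.74. HFE, the regulator of hepcidin mutated in haemochromatosis, had 3 probes at −0.63, −0.66 and −0.62. These genes were picked for having every probe past 1.5-fold, and the gap of the ASCC3 probes is wider than the median gap. At 6 h the gene means were 0.27 for ASCC3, 0.88 for ZNF254, 0.70 for CDC26, −0.77 for CABLES1 and −0.78 for HFE. COL4A3, a basement membrane collagen, was the 1 gene with probes past 1.5-fold on opposite sides, at 0.87 and −0.69.

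The gene farthest from 0 was CD69, a lectin-like protein that lymphocytes display on activation, at 2.18, a 4.53-fold difference. It had 1 probe and no value at 6 h. SERAC1, which remodels phospholipids where mitochondria meet the endoplasmic reticulum, had 1.92, and the splicing kinases CLK1 and CLK3 had 1.82 and 1.58. Next came BTN3A1, a butyrophilin sensed by gamma delta T cells, and the potassium channel subunit KCNS1, both at 1.78, a 3.43-fold difference. SNTG2, a syntrophin that binds the dystrophin complex, had 1.67, and STAT4, which carries interleukin 12 signals, had 1.51. Both lacked a 6 h value, as did the olfactory receptor gene OR10J5 at 1.48 and the long noncoding RNA LINC00261 at 1.41. The lectin receptor pseudogene KLRA1P had 1.48. Further genes at 1.41 were ISM1, a secreted protein, MFAP5, a microfibril component, and KLHL3, the cullin 3 adaptor that controls salt transport in the distal kidney tubule. C1S, a complement protease, had 1.39 and shared that value with IL2RA.

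Lowest was FOXN4, a forkhead factor of retinal and spinal progenitors, at −1.68, a 3.20-fold difference. TMEM204 had −1.6, the folate receptor gene FOLR3 −1.58 and the TNF receptor gene TNFRSF1B −1.56. ALOX12, a lipoxygenase, had −1.55 and DSCR4 −1.54. PPM1L, a phosphatase that damps stress kinase signals, had −1.5 and no value at 6 h. DLGAP1, a scaffold of the postsynaptic density, had −1.49, and EVPL, which anchors keratin filaments at desmosomes, had −1.47. PABPC5, a poly(A)-binding protein, had −1.44, GATM, which makes the precursor of creatine, −1.42, and ZNF135 −1.41. The chemokine gene CCL26 and the coagulation factor gene F7 both had −1.40, F7 again without a 6 h value, and the neuronal factor NEUROD2 closed the ranking at −1.38. All 30 genes at these ends had 1 probe each.

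All 23 of these genes that the second array measured lay nearer to 0 on it, where the ranking was made on the 3 h value. KLHL3 had 0.07 at 6 h, ISM1 0.55, MFAP5 0.91 and C1S 0.76. DLGAP1 had −0.26, EVPL −0.33, GATM −0.43, CCL26 −0.13 and NEUROD2 −0.56. The arrays may share their untreated RNA. Genes measured at 3 h but not at 6 h numbered 341, and 32 of them (9.38%) were past 2-fold, against 142 (1.36%) of the genes with both values. Values that the other array lacks were therefore far from 0 more often, and why that array lacks them is unstated.

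**Figure D2:**
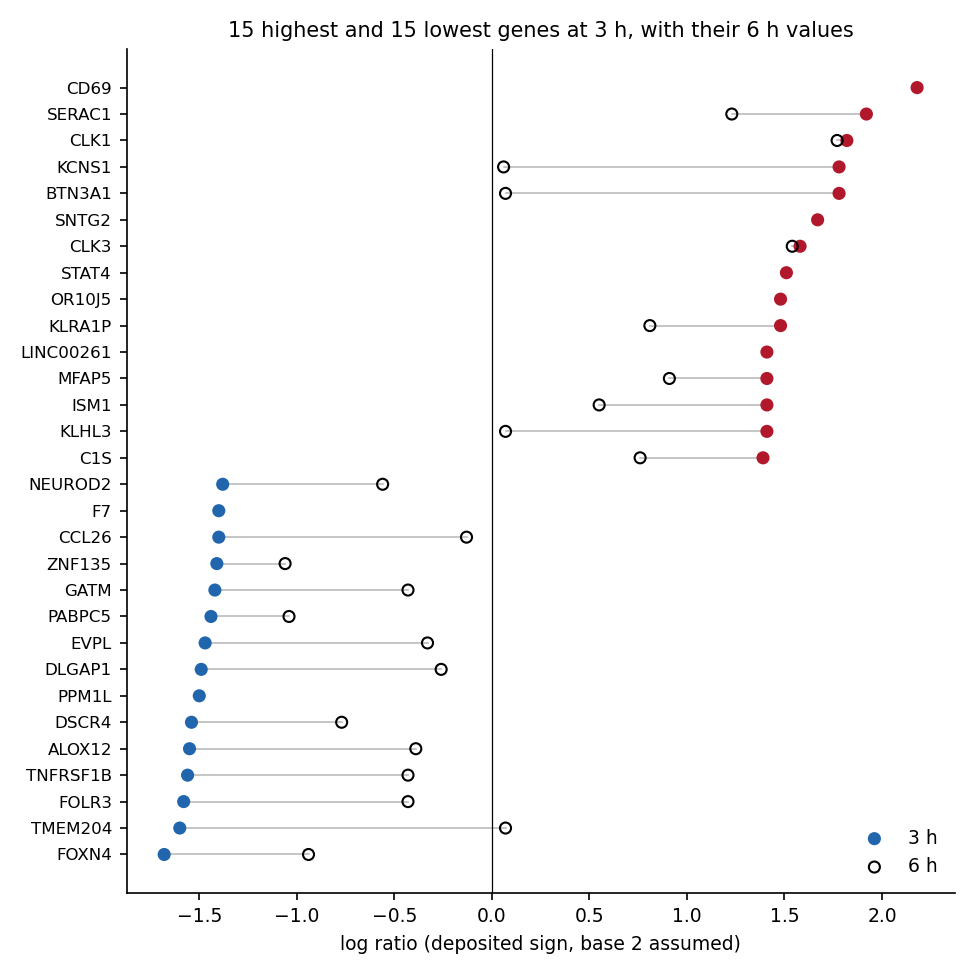
Log ratios of the 15 highest and 15 lowest genes at 3 h (filled, red where positive and blue where negative) and, where measured, at 6 h (open), 1 array and 1 probe each. CLK1 and CLK3 keep nearly the same value, while BTN3A1, KCNS1 and KLHL3 lie near 0 at 6 h; 7 genes have no open symbol because the 6 h array gave no value.

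Of the genes of the drug's targets, ROCK1 at 0.14 lay within the quartiles of the array and ROCK2 at 0.39 above the upper one. ROCK substrates and partners had a median of 0.10 with 13 of 20 positive, and 0 of them reached 1.5-fold, beside 9.36% of all genes. Adducin 3 (ADD3), a cap of the spectrin skeleton, had 0.38, profilin 2 (PFN2) 0.37 and radixin (RDX), a membrane linker phosphorylated by ROCK, 0.35, against −0.47 for the formin FHOD1. Kinases related to ROCK had a median of −0.08 over 22 genes and also held 0 past 1.5-fold, beside the same 9.36%. LATS1, a Hippo pathway kinase, had 0.51, and PRKACA, the catalytic subunit of protein kinase A, had −0.55.

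Formins and WASP family proteins, which start actin filaments, had a median of −0.22 with 14 of 19 negative. FMN2 had −0.76 and WASF2, an activator of branched actin, −0.57. Against this, the formin DIAPH2 had 1.01, the highest value of all genes in the cytoskeleton and junction lists together with KRTAP11-1. Actin bundling and severing proteins were mixed, with a median of 0.05 and 19 of 33 positive. TMOD1, which caps pointed ends, had 0.64 and PLS1, a bundler of microvilli, 0.60, while CORO6 had −0.68 as the mean of discordant probes at −1.12 and −0.23, and supervillin (SVIL) and utrophin (UTRN) both had −0.59. MRTFB, the actin-sensing cofactor of SRF, which belongs to none of the lists and was picked out after its value was seen, had −1.0 at 3 h and no value at 6 h.

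Microtubule and filament genes followed. Tubulins had a median of 0.02 over 12 genes, 0 of them past 1.5-fold, beside 9.36% of all genes. Intermediate filaments other than keratins also had 0.02 over 15 genes, with the neurofilament gene NEFL at −0.73 and internexin (INA) at 0.58. Among keratins and keratin-associated proteins 31 of 43 were negative, around a median of −0.15, including KRT13 at −1.26 and KRT19 at −0.73. Here KRTAP11-1, a hair matrix protein, had 1.01 and KRT27 0.71. At cell junctions, claudins and tight junction proteins had a median of −0.06 over 27 genes, with CLDN1 at −0.94 and the polarity gene PARD3 at 0.76. Connexins had −0.09 over 9 genes, with GJA5 at −1.10. No symbol of the septins was found on the platform.

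**Figure D3:**
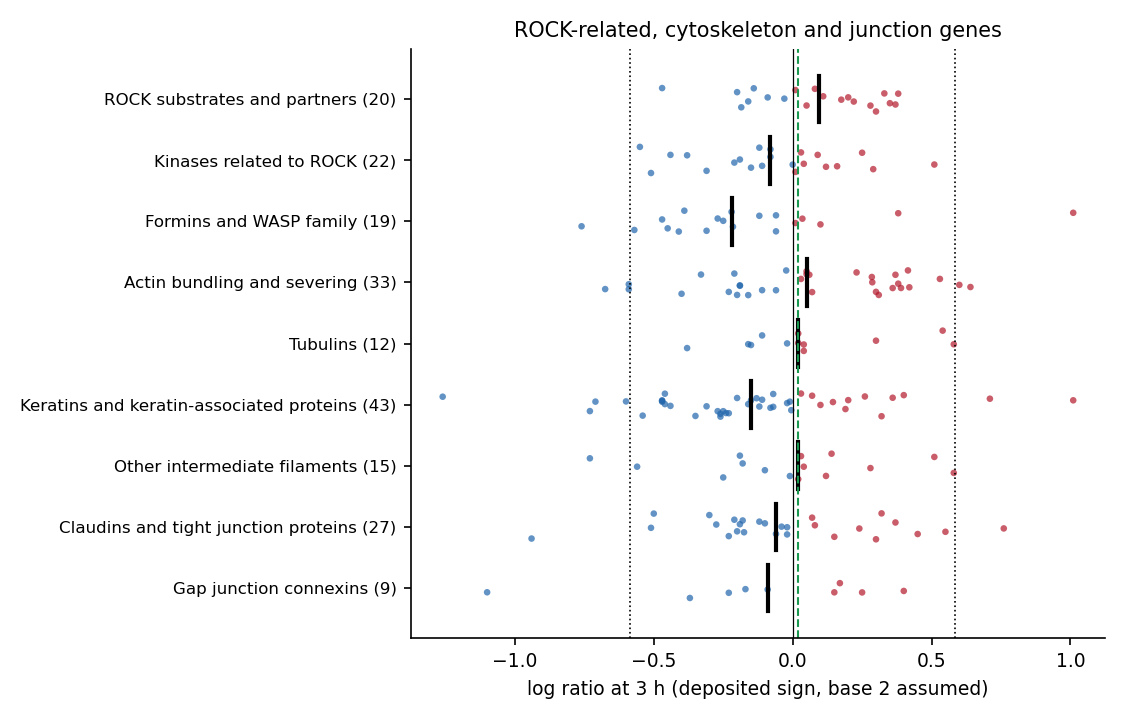
Log ratio at 3 h of each measured gene (points, red positive and blue negative) in 9 lists of ROCK-related, cytoskeleton and junction genes, with the number measured in brackets. Black bars mark list medians, the dashed line the median of all genes at 0.02 and the dotted lines 1.5-fold; medians run from −0.22 for formins and WASP proteins to 0.10 for ROCK substrates and partners.

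Genes of membrane traffic were mostly positive. SNARE and exocyst proteins, which tether and fuse vesicles, had a median of 0.19 with 35 of 41 positive. EXOC8 had 0.84, VAMP7 0.70, STX16 0.69 and GOSR1 0.61. These 4 were positive past 1.5-fold and 0 were negative, beside 4.88% and 4.49% of all genes. Sorting nexins, VPS and ESCRT proteins, which sort cargo in endosomes, had 0.16 with 44 of 55 positive. Their range was wide, from the tether EEA1 at 1.0 and the ATPase VPS4B at 0.72 to SNX19 at −0.86 and VPS13C, a lipid transporter, at −1.05. Coats between endoplasmic reticulum and Golgi had 0.15 with 20 of 26 positive, led by COPB1 at 0.46 and COPB2 at 0.42. Autophagy genes had 0.25 with 19 of 29 positive, led by ATG14 at 0.59 and ATG16L1 at 0.58, although their mean was lower at 0.16. Pooled after these values were seen, the 4 lists held 151 genes, 78.1% of them positive, with a median of 0.17. Few were far from 0: 4.64% were positive past 1.5-fold, which is near the 4.88% of all genes, and 1.32% negative.

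Lists of RNA handling and translation had medians above that of all genes. DEAD and DEAH box helicases, which remodel RNA, had a median of 0.23 with 35 of 43 positive, among them DHX29, which helps ribosomes scan structured leaders, at 0.91 and DDX20 at 0.65. Translation initiation factors had 0.18 with 32 of 40 positive. EIF2S1, the alpha subunit of eIF2 whose phosphorylation slows translation under stress, had 0.90, EIF1AX 0.77 and EIF3A 0.63. Heterogeneous nuclear ribonucleoproteins had 0.29 with 12 of 17 positive, from HNRNPH3 at 0.62 to HNRNPC at −0.42. Nuclear pore and transport genes had 0.12 with 28 of 45 positive, with TPR at 0.71, NUP107 at 0.70 and IPO8 at 0.65.

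Within the splicing machinery the values diverged. Small nuclear RNP and SF3 proteins, a list by symbol stem that also holds LSM14A, a protein of cytoplasmic RNA granules at 0.72, had a median of 0.11, with PRPF39 at 0.89 and SF3B1 at 0.64, yet PRPF8, at the catalytic heart of the spliceosome, had −0.98. SR proteins, the substrates of CLK kinases, had 0.04 over 13 genes, with SRSF5 at 0.82 and SRSF3 at −0.29. DYRK, HIPK and SRPK kinases, relatives of CLK or kinases of the same substrates, had 0.03 over 10 genes. They ran from HIPK1 at −0.53 to SRPK1 at 0.27, with 0 past 1.5-fold, beside 9.36% of all genes. The high values of CLK1 and CLK3 were thus not seen in these 10 DYRK, HIPK and SRPK genes. Other CLK genes, their closest relatives, are not reported here. Decay and deadenylation genes had 0.09, led by the exosome gene EXOSC8 at 0.75, and polyadenylation and poly(A)-binding genes 0.05, from PAPOLA at 0.44 to PABPC5. Pooled after the values were seen, the 6 lists of helicases, initiation factors, heterogeneous ribonucleoproteins, nuclear pore, small nuclear RNP and decay genes, without the SR and poly(A) lists, held 207 genes, 71.0% of them positive, with 6.28% positive and 0.483% negative past 1.5-fold, against 4.88% and 4.49% of all genes.

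In the transcription machinery, RNA polymerase subunits and general factors had a median of 0.08 with 34 of 60 positive. POLR3F, a subunit of RNA polymerase III, had 1.31, TAF5L 0.75, TAF7L 0.72, POLR3G 0.70 and GTF2A2 0.67. These 5 were positive past 1.5-fold and 0 were negative, beside 4.88% and 4.49% of all genes. The Mediator complex had 0.07 over 25 genes and 0 past 1.5-fold in either sign, beside 9.36% of all genes. Histone genes had 0.08 with 27 of 40 positive, led by H2AC6 at 0.81. Many histone genes are near-identical and their probes may not tell them apart. Acetyltransferases and deacetylases, in a list that also holds BRD genes such as BRD1, had 0.09 and a wide range. It ran from HDAC2 at 0.90 and EP300 at 0.68 to HDAC7 at −0.82 and NCOA5, neither kind of enzyme, at −0.92. Methyltransferases and demethylases had 0.01 over 47 genes, led by KMT5B at 0.83.

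Sequence-specific factors of development lay mostly on the negative side. Basic helix-loop-helix factors and ID proteins had the lowest median of all lists, −0.23, with 30 of 36 negative. NEUROD6 had −0.94, ATOH1, a factor of hair cells and cerebellar granule neurons, −0.88, HAND1 −0.61 and the lysosome regulators TFEB and TFE3 both −0.74. MXD4, an antagonist of MYC, stood on the other side at 0.79. Homeobox genes outside the HOX clusters, with T-box and SATB genes included, had −0.15 with 59 of 91 negative, and 7 were negative past 1.5-fold against 0 positive, beside 4.49% and 4.88% of all genes. Among them were LMX1A at −1.01, NKX2-2 at −0.90, POU3F3 at −0.88, TBX21 at −0.84 and SIX3 at −0.65. Forkhead factors had −0.14 with 24 of 32 negative. KLF and SP factors had −0.18 with 14 of 18 negative and 0 past 1.5-fold, beside 9.36% of all genes. Nuclear receptors had −0.14, from the bile acid receptor NR1H4 at −1.12 and NR0B1 at −0.87 to the thyroid hormone receptor THRB at 0.88.

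Other factor families crossed zero. SOX factors had a median of −0.16 but also SOX5 at 1.08 and SOX13 at 1.05, against SOX4 at −0.68. ETS factors had −0.14, with the SRF partner ELK4 at 0.87, its relative ELK3 at −0.81, ETV2 at −0.83 and SPI1 at −0.64. Pooled after the values were seen, these 7 families held 253 measured genes, of which 71.1% were negative, with a median of −0.16, and 8.70% were negative past 1.5-fold against 4.49% of all genes.

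Secreted and surface signals also lay on the negative side. For Wnt ligands, receptors and antagonists the median was −0.18, and 30 of 39 were negative, such as WNT10A at −1.06, WNT2B at −0.97 and the receptor FZD4 at −0.62, against the antagonist SFRP4 at 0.72. Wnt target genes had −0.11 with 10 of 11 negative, MYC at −0.60 and NKD2, an inhibitor of the pathway, at −0.53. In the Notch pathway 14 of 23 genes were negative and 9 positive, with a median of −0.08 and a highest value of 0.56. Its ligand JAG1 had −1.13, the coactivator MAML3 −1.0 and the modifier LFNG −0.82. The Hedgehog pathway had −0.20 with 8 of 10 negative, but PTCH1, the receptor that is also a target, had 0.95, and GAS1, a coreceptor, −0.71. FGF ligands had −0.07, with FGF6 at 0.93 and FGF23 at −0.79.

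Receptor tyrosine kinases were negative in 26 of 37 cases, around a median of −0.14, and 5 were negative past 1.5-fold against 0 positive, beside 4.49% and 4.88% of all genes. The 5 were ROR2 at −1.25, NTRK2 at −1.05, EPHB1 at −0.78, CSF1R at −0.77 and FGFR3 at −0.71. TNF ligands and receptors had −0.18 with 22 of 34 negative. Behind TNFRSF1B came EDAR, a receptor of hair and tooth buds, at −1.20, NGFR at −0.68, TNFSF10 at −0.64, TNFRSF12A at −0.62 and TNFSF14 at −0.61. Past 1.5-fold, 6 were negative and 0 positive, beside 4.49% and 4.88% of all genes. Interleukins and receptors had −0.12 over 56 genes, from IL20 at −1.14, IL10RA at −1.08 and IL17RD at −1.04 to IL2RG at 0.61 and IL2RA at 1.39. Inside the cell, MAP kinases and their activators had 0.08, with MAP3K2 and MAP3K10 at 0.62 and MAP4K5 at 0.60. These 3 were positive past 1.5-fold and 0 were negative, beside 4.88% and 4.49% of all genes. Again after the values were seen, 7 lists of secreted and surface signals were pooled. They were Wnt ligands and receptors, Notch, Hedgehog, FGF ligands, receptor tyrosine kinases, TNF and interleukins. Left out were Wnt targets, MAP kinases, and butyrophilins with lectin-like NK receptors, which had a median of 0.36 with 6 of 8 positive. The pool held 212 measured genes, 69.3% of them negative. Past 1.5-fold, 12.7% were negative and 2.36% positive, against 4.49% and 4.88% of all genes.

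Marker genes of tissues other than the kidney line were read beside these groups. Of 129 markers of neurons, muscle, fibroblasts, blood cells, liver and pluripotent cells on the platform, 97 had a value. They had a median of −0.12, and 64.9% were negative. Past 1.5-fold, 10.3% were negative and 4.12% positive, against 4.49% and 4.88% of all genes. The neuronal markers had 3 positive and 1 negative past 1.5-fold. Medians ran from −0.19 for muscle and −0.13 for liver to −0.10 for neuronal, fibroblast and pluripotency genes and −0.09 for blood cell markers. Sperm and testis genes, picked by symbol stem, had −0.14 with 34 of 46 negative. Missing values differed between these groups. Of these markers 24.8% had no value at 3 h, as had 18.8% of the secreted and surface signals and 11.2% of the developmental factors, against 1.43% of the RNA handling and translation genes, 0.658% of the membrane traffic genes and 13.1% of all genes. Of these groups, the negative ones had more missing genes than the positive ones, and the part of signal strength in their values was not tested, because the deposited table gives no intensities.

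**Figure D4:**
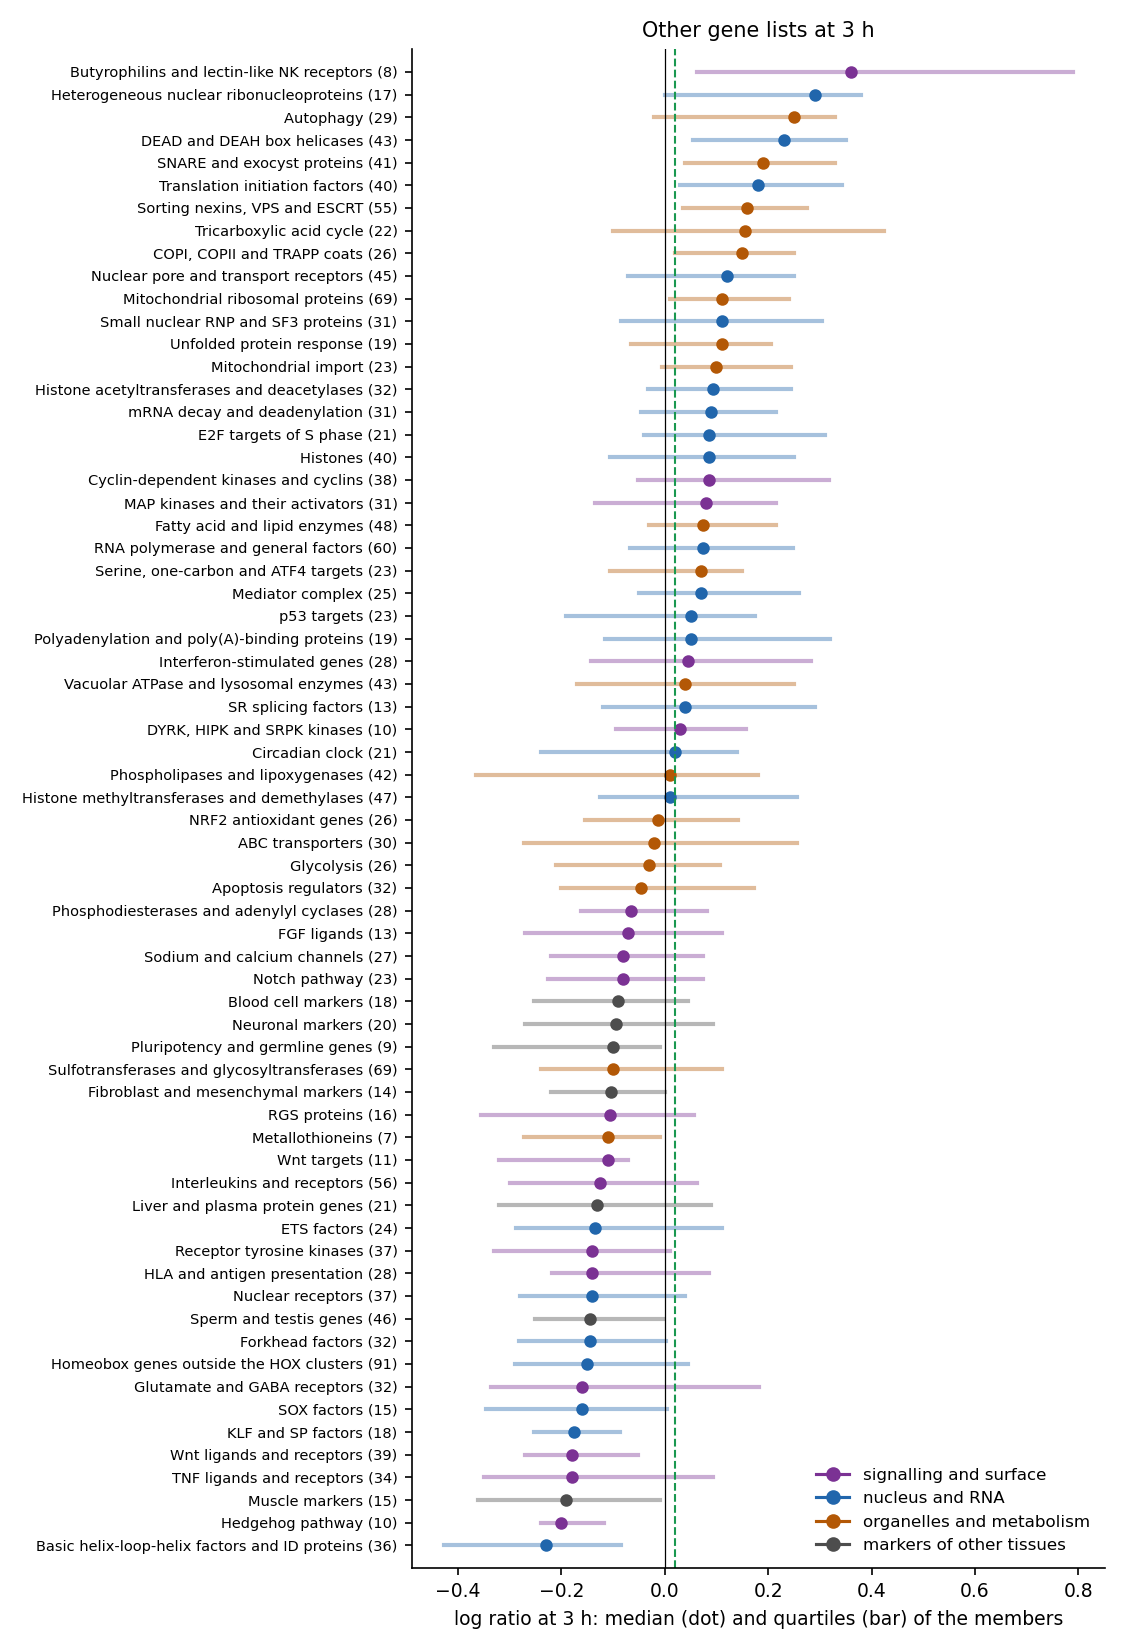
Median (dot) and quartiles (bar) of the log ratios at 3 h in the 66 other gene lists, with the number of genes measured in brackets and the median of all genes dashed. RNA handling and traffic lists lie to the right and developmental factor, tissue marker and most surface signal lists to the left. Butyrophilins and lectin-like NK receptors lie farthest right, at 0.36. Many quartile bars cross 0.

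Mitochondrial and metabolic lists were mostly on the positive side but close to 0. Mitochondrial ribosomal proteins had a median of 0.11 with 52 of 69 positive, within the narrow range of −0.22 to 0.52. Past 1.5-fold there were 0, beside 9.36% of all genes. Mitochondrial import genes had 0.10 with 17 of 23 positive, led by TIMM17A at 0.82. Genes of the tricarboxylic acid cycle had 0.16, where SDHB, the iron-sulfur subunit of succinate dehydrogenase, had 1.02 and SUCLA2 0.65, against OGDH at −0.37. Fatty acid and lipid enzymes had 0.08 with 33 of 48 positive, from ACOX3 at 0.67 to ECHDC3 at −1.11. Glycolysis had −0.03 over 26 genes, with PFKP at 0.47, GAPDH at −0.40 and PFKFB2 at −0.62.

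Stress programmes showed small medians. The unfolded protein response had 0.11, with the chaperone HSPA5 at 0.42 and XBP1 at −0.46. Serine, one-carbon and ATF4 target genes had 0.07, NRF2 antioxidant genes −0.01 with HMOX1 at −0.72, p53 targets 0.05 with DDB2 at 0.92 and CDKN1A at −0.40, and metallothioneins −0.11. Apoptosis regulators had −0.04, with BCL2 at −0.62 and CFLAR, the inhibitor of caspase 8 activation, at 0.52. E2F targets of S phase had 0.09, led by SLBP, the histone mRNA binding protein, at 0.61. Cyclins and their kinases also had 0.09, with the elongation kinase CDK9 at 0.59 and its partner CCNT2 at 0.60, both past 1.5-fold, while its other partner CCNT1 was at 0. Clock genes had 0.02, with BMAL1 at 0.47 and its repressor NR1D1 at −0.59.

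Genes of lipid messengers held several far values on the negative side only. Phospholipases and lipoxygenases had a median of 0.01, but 8 of 42 were negative past 1.5-fold and 0 positive, where all genes had 4.49% and 4.88%. After ALOX12 these were ALOX12B at −1.13, DAGLA at −1.11, ALOX15B at −0.97, PLB1 at −0.96, PTGS1 at −0.92, PLCD3 at −0.89 and PLA2R1, a receptor and no enzyme, at −0.78. The mean of the list was therefore −0.16 while its median was near 0. Sulfotransferases and glycosyltransferases had −0.10 over 69 genes, from CHST1 at −1.32 to CHST9 at 0.93 and GALNT8 at 1.11. ABC transporters had −0.02, from ABCC12 at −0.95 to ABCA5 at 0.73.

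Promoter sequence was compared across the array with RefSeq windows of 300 bases on GRCh38.p14, 250 before and 50 after the first listed start, found for 8680 of the measured genes. Of 16 motifs searched on both strands, the palindromic NRF1 motif and ETS (CCGGAAG) had the largest differences. The 162 genes with the NRF1 letters, 1.87% of the genes matched and 1.36% of all promoters, had a median log ratio of 0.17 against 0.02 without them. For the ETS letters the medians were 0.12 over 1341 genes, 15.4% of those matched and 10.7% of all promoters, and 0.00 without. Both letter strings are frequent in promoters of widely expressed genes. The medians with the motif were the higher ones in each of 5 GC quintiles, from 0.05 to 0.33 for NRF1 and from 0.05 to 0.16 for ETS. The outer NRF1 quintiles held only 9 and 19 genes, and without them its medians ran from 0.13 to 0.28. On the other side, genes with a TATA box, searched as TATAAA, had a median of −0.03 against 0.03. For the AP-1 letters TGACTCA it was −0.02 against 0.03.

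The remaining motifs differed less than NRF1 and ETS. They were E2F (TTTCGCGC), CRE (TGACGTCA) and its core (TGACG), YY1 (AAGATGGCG), the hypoxia element (ACGTG), the E-box (CACGTG), the GC box (GGGCGG), the CCAAT box by its name's letters, the heat shock element (GAANNTTC), CHR (TTTGAA), TEAD (GGAATG) and the CArG box. Their differences of medians, with minus without the motif, lay between −0.02 and 0.07. CRE contains this core, and the E-box contains the hypoxia element. The CArG box, the binding sequence of SRF, gave 0.01 over 106 genes against 0.03 without it.

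The promoter stretches below are shown because they hold the NRF1 letters (capitals) next to genes past 2-fold. There were 5 such genes among the 162 with the letters, beside 125 past 2-fold among the 8680 genes with a promoter. They were ESF1, PHF14, CCAR1, JAG1 and MRTFB, the last with the letters just after its start and not shown. Each stretch is the 120 bases before the gene's start, 5′ to 3′ on the gene's strand, in RefSeq's GRCh38.p14: chr20:13784920-13785039 (minus strand) for ESF1, chr7:10973752-10973871 (plus) for PHF14, chr10:68721119-68721238 (plus) for CCAR1 and chr20:10674000-10674119 (minus) for JAG1.
ESF1: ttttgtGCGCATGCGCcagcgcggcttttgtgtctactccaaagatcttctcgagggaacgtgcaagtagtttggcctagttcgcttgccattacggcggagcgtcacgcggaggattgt
PHF14: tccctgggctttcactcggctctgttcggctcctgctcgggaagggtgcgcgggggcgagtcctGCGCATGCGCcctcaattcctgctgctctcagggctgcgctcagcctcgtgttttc
CCAR1: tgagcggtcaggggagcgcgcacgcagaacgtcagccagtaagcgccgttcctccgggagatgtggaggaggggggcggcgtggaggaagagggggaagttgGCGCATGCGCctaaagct
JAG1: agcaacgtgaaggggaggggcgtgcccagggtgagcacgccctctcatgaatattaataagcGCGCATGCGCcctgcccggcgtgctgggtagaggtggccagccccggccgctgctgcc

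The genes behind these letters were not all on the same side. ESF1, a nucleolar factor of ribosomal RNA processing, had 1.14 at 3 h and 1.04 at 6 h. NDUFAF5, which starts 109 bases from ESF1 on the other strand, had −0.11 at 3 h. PHF14, a reader of histone tails, had 1.12 and 0.55, and CCAR1, a coactivator of transcription and apoptosis, had 1.07 and 1.39. JAG1 had −1.13 and −0.55. Far genes with these letters thus lay on both sides of 0.

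Neighbouring genes were compared as well. Among measured genes with a promoter entry, 285 pairs started head to head within 1000 bases on opposite strands. Their 2 log ratios had the same sign in 57.5% of pairs and a correlation of 0.14 over the 285 pairs, given as a description since both genes share the array. Neighbours on the same strand with starts within 20000 bases had the same sign in 48.8% of 441 pairs and a correlation of 0.07. The median value was 0.12 in head-to-head genes and −0.04 in the same-strand pairs. Both genes were past 1.5-fold on the same side in 1 of the 285 head-to-head pairs and in 3 of the 441 same-strand pairs. Of single genes, 4.88% were past it on the positive side and 4.49% on the negative. Whether these pairs exceed what such shares would give was not tested. The head-to-head pair was formed by AREL1, a ubiquitin ligase that restrains apoptosis, at 1.08, and FCF1, a nuclease-fold protein of small-subunit processing, at 1.14, with 6 h values of 0.66 and 0.93. The 63 bases between their starts, chr14:74713081-74713143 on GRCh38.p14, are shown on the plus strand because they hold the ETS letters on each strand (capitals).
AREL1 and FCF1: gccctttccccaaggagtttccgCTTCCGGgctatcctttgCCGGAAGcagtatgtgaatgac

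Composition and length of genes moved with the ratio only slightly. The median log ratio was −0.02 in the lowest quintile of promoter GC, 0.06 in the middle quintile and 0.00 in the highest, and the Spearman coefficient over 8680 genes was 0.00. The spread fell with GC, from an SD of 0.39 in the lowest quintile to 0.31 in the highest, and genes past 2-fold fell from 2.62% to 0.771%. Across 10708 genes with a length in RefSeq, the median rose from −0.06 in the shortest quintile, up to 8.29 kb, to 0.07 in the fourth quintile and was 0.03 in the longest, with a Spearman coefficient of 0.11. These genes share 1 labelling reaction and 1 hybridisation. By chromosome, medians ran from −0.06 on chromosomes 22 and 16 to 0.08 on chromosomes 4 and 5, and these differences were not tested.

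**Figure D5:**
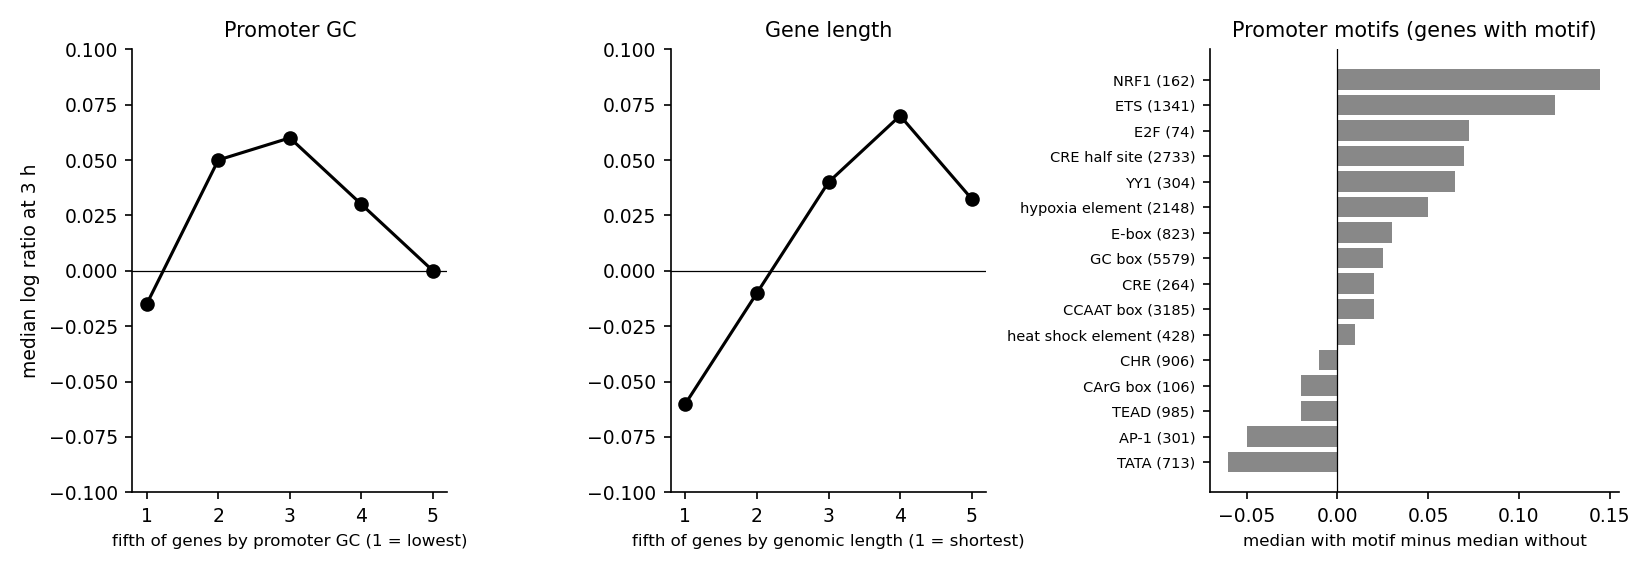
Left and middle, median log ratio at 3 h of genes in quintiles of promoter GC and of genomic length; right, difference of medians between genes with and without each promoter motif, with the number of genes holding it. The medians stay between −0.06 and 0.07 across the quintiles, and NRF1 and ETS letters give the largest differences among the motifs.

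Of the 24267 probes, 15.5% had no value at 3 h. Probes without a gene symbol, which enter no gene value, were more spread, with an SD of 0.40 against 0.36 for named probes. Probe names fall into a larger series beginning with H and a smaller one beginning with opHsV. The smaller series had more missing values, 20.2% against 13.8%, and a wider SD, 0.41 against 0.37. Fewer of its probes carried a symbol, 33.2% against 63.3%, so this contrast overlaps with that between named and unnamed probes.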

How the data were processed

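Per the labels' protocols, RNA was isolated with ISOGEN, amplified through an amino allyl kit and coupled to cyanine dyes. The authors deposited 1 log ratio per probe and array, to 2 decimals and with a median of 0. The base is unstated, and the deposited values were read as log2. No label or header used here names the background correction, normalization, spot filter or numerator. GEO's platform annotation named 1 gene for 13395 probes, and 10872 had no symbol and 0 had several. RefSeq's GRCh38.p14 table lists the symbols of 10822 probes as they are, 2446 were renamed by synonym and 127 stayed as given. Gene values are means over probes.

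The members and the 79 gene lists were chosen with earlier results of these data known, and 2 symbol stems were corrected after values were seen. Some lists are not reported here. Lists are described by counts and medians, with no test. Named are the 15 highest and lowest genes without placeholder symbols (ties in alphabetical order), genes whose several probes all pass 1.5-fold, ROCK1 and ROCK2, and, from lists, members past 1.5-fold or otherwise the 3 farthest on either side; longer lists are given in part. The summaries were run on simulated data with a known shift and noise far below the probe SD found here. That run checks the calculation, not the precision of the values. Python 3.11.15, pandas 2.3.3, NumPy 2.4.6 and SciPy 1.17.1 were used.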

Additional observations from a re-analysis of the deposited data

Results flagged for a closer look

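For 12 named genes the 3 h and 6 h arrays gave values of opposite sign that were 1 unit or more apart. Each has 1 array and 1 probe per time, so the difference was not tested. Named genes were picked mostly for a 3 h value far from 0, and the same count over all genes was not made. The differences, 6 h minus 3 h, were −2.07 for NRXN3, −1.5 for SFRP4 and −1.14 for CHST9, and, in the other direction, 1.67 for TMEM204, 1.52 for B3GALNT1, 1.32 for PRPF8, 1.17 for IL4, 1.14 for NR1H4, 1.10 for NEUROD6, 1.09 for TBX21, 1.08 for VLDLR and 1.05 for ABCC12. NRXN3, a neuronal adhesion gene, had 0.93 and −1.14, and PRPF8 had −0.98 and 0.34. NR1H4 (0.02) and TMEM204 (0.07) lay near 0 at 6 h.

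Outside the named genes, 246 of 8986 measured probes without a gene symbol were past 2-fold at 3 h (2.74%), the lowest at −2.79 and −2.52, both below the lowest gene at −1.68.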

How the results depend on the processing

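At 1.5-fold the counts were 527 positive and 485 negative genes, so that the negative majority at 2-fold (71 and 103) was not kept. If the values were natural logarithms, 310 positive and 323 negative genes would lie past 2-fold. Centring on the median gene gave 60 and 106, limiting to genes with both values 55 and 87, and the probe farthest from 0 82 and 114. Of 78 list medians, 67 moved by less than the probe SD of 0.32 divided by the root of the gene number when means replaced medians, 11 moved by more and 4 changed sign. Centring shifted every list by −0.02 and changed the sign of 2. Limiting to genes with both values moved 1 list by more than this. No paired analysis was possible because each time has 1 array and no replicate number. The natural-logarithm reading applies to each fold printed here. Depth is unknown, and without intensities no signal over background could be set beside any value.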
